A study of Xenopus laevis with 18 samples.

Results

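A set of 96 probe sets, of 23630 analysed, stood at least 1 log2 unit (2-fold) higher in Gam1 embryos than in water embryos in each of the 3 replicate pairs of late gastrula and again in each pair of early neurula. The first condition alone was met by 0.601% of probe sets and the second alone by 0.863%. The set was chosen on those differences, so the direction and size of its later values follow from the rule and are given as a description, without a test. The early gastrula arrays took no part in the choice. The thresholds were met by 109 probe sets (0.461% of those tested), and 13 of them were set aside because they carry the symbols ccng1, sesn1, plk2, polk, parp3, aen, slc40a1 or foxo3, which the rule leaves out together with ppm1d, tnfrsf10b and ext1. With the signs turned round, 7 probe sets (0.0296%) were at least 1 lower in every later pair. Of the 96 members, 26 carry a gene symbol in the platform annotation and stand for 18 genes, and 70 carry none (72.9%, against 47.2% of all probe sets). The 70 fall under 62 cluster numbers of the array design, and 16 of them share a number with another member.

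Whole Xenopus laevis embryos were injected into the animal hemisphere at the one-cell stage with 0.5 ng of Gam1 mRNA or with water, and each sample pooled 20 embryos. Gam1 and water embryos were each sampled at early gastrula (9 h after fertilization), late gastrula (13.5 h) and early neurula (16.5 h), with 3 biological replicates per group and 18 arrays in all. Replicates were meant to cover variation between egg clutches, but the labels name no clutch, and a pair is a Gam1 and a water sample with the same replicate number. Embryos came from in vitro fertilization and were raised at room temperature, and no group received another mRNA, so an effect of Gam1 and an effect of injected RNA as such cannot be told apart. Gam1 acts on a protein, and no probe set for the injected mRNA was used here, so the labels could not be checked on its target.

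Gam1 is an adenovirus protein that leads to loss of the enzyme which activates SUMO, a small protein joined to other proteins to alter their activity, partners or location. Many SUMO targets are transcription factors and chromatin proteins. In the frog embryo, transcription from the embryo's own genome starts in the blastula, while RNAs stored in the egg are cleared at different rates through gastrulation, so the level of an RNA at these stages reflects both new synthesis and the remaining store.

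Values are log2 intensities, and a difference is Gam1 minus water. The scale of the table runs from 2.07 to 16.13 with a median of 7.72 on every array, and values close to 2.07 have no order. Arrays of a group correlated at 0.957 to 0.980. Intensities of different probe sets are not comparable as amounts of RNA. In pooled whole embryos, fewer cells that hold an RNA and less of it per cell cannot be told apart. Among the lists of cell type markers, those of several types were lower on the mean in Gam1 embryos at the later stages, against medians of 0.02 and 0.00 over all named genes. Neural plate genes were lower in 25 of 25 cases at late gastrula and in 23 of 25 at early neurula, with medians of -0.34 and -0.30. Epidermal genes were lower in 20 and 21 of 27 cases (medians -0.26 and -0.22), genes of multiciliated cells and ionocytes in 12 and 15 of 17 (-0.46 and -0.36), and mesodermal genes in 19 and 18 of 29 (-0.22 and -0.18). Endodermal genes were lower in 14 and 10 of 24 cases (-0.05 and 0.03) and those of blood and endothelium in 5 and 6 of 9 (-0.09 and -0.19), while germ plasm and maternal RNAs were higher in 22 and 20 of 23 (0.31 and 0.10). No gene of these lists is a member, and none passed the adjusted test in limma, a moderated linear model, without pairing. A fit of all 18 arrays with stage and replicate number as a block passed as lower, at late gastrula and early neurula, 5 and 3 neural plate genes, 7 and 6 epidermal, 2 and 1 of multiciliated cells and ionocytes, 4 and 4 mesodermal and 2 and 2 endodermal genes, where 2.2% and 3.47% of all probe sets passed in this direction. As higher it passed no gene of these lists at late gastrula and 2 mesodermal, 1 endodermal, 2 blood and endothelium and 3 maternal genes at early neurula, where 1.65% and 4.53% of all probe sets passed. The part of these shifts in the values below was not tested.

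The members differed by a median of 2.27 at late gastrula (quartiles 1.78 and 2.99, range 1.14 to 5.82) and of 2.78 at early neurula (quartiles 1.99 and 3.59, range 1.28 to 7.42). The difference was larger at early neurula than at late gastrula for 72 of the 96. All Gam1 arrays lay above all water arrays for 85 members at late gastrula and 90 at early neurula, where 4.09% and 5.54% of all probe sets did so. These counts follow from the rule. The size of the gap varied by pair, with medians of 2.91, 2.13 and 1.67 in pairs 1, 2 and 3 at late gastrula and of 3.21, 2.58 and 2.40 at early neurula. Pair 1 held the largest of the 3 differences for 67 members at late gastrula and for 71 at early neurula.

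Members took different courses between the stages. In water embryos, 47 members (49.0%, against 29.6% of all probe sets) ended at least 1 lower at early neurula than at early gastrula, 35 (36.5%, against 45.9%) ended within 1, and 14 (14.6%, against 24.5%) ended at least 1 higher. In Gam1 embryos the same stages gave 16 members lower (29.0% of all probe sets), 28 within 1 (46.9% of all) and 52 higher (24.1% of all). Of the 47 members that declined in water embryos, 16 also declined in Gam1 embryos, 24 ended within 1, and 7 ended higher. Of the 35 that ended within 1 in water embryos, 31 ended at least 1 higher in Gam1 embryos, while all 14 that climbed in water embryos climbed in Gam1 embryos too. These courses compare the first and last stage only. At early neurula the Gam1 mean of 73 members was above the water mean of every stage, by at least 1 for 57, and for the other 23 it lay at or below the highest water mean. Gam1 and water arrays of the later stages entered the rule, so the courses of both groups are a description.

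**Figure D1:**
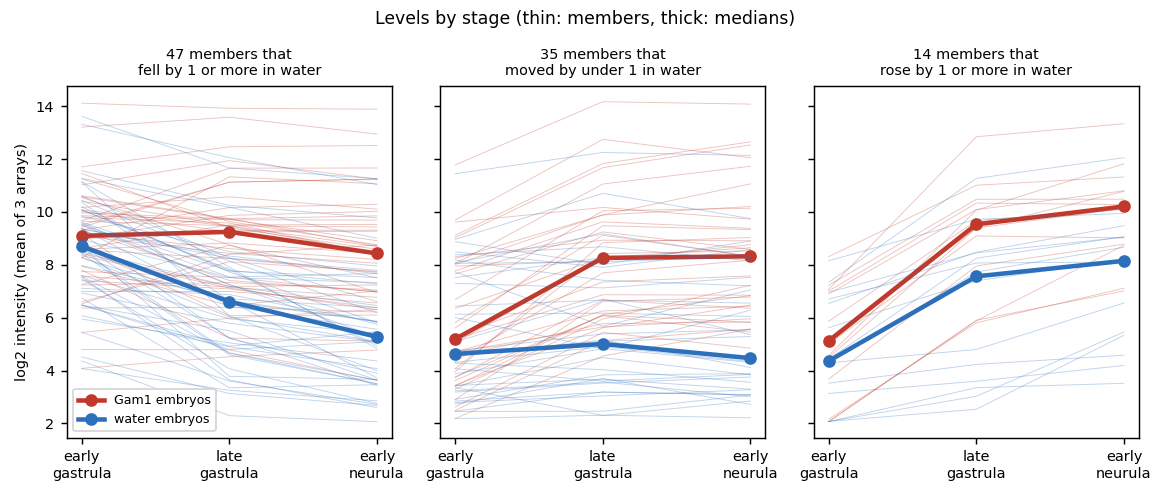
Log2 intensity (vertical axis, mean of 3 arrays) of the 96 members at 3 stages (horizontal axis), in panels by their course in water embryos, with thin lines for members and thick lines for medians. In the left panel the Gam1 medians are 9.10, 9.25 and 8.43 and the water medians 8.71, 6.61 and 5.28 in stage order, and in the middle panel the Gam1 medians are 5.19, 8.26 and 8.32 beside water medians of 4.63, 5.01 and 4.47.

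Nucleic acid metabolism is represented by nt5c3a.L, tsen54.L, lig4.L and tent5a.L. nt5c3a encodes a cytosolic nucleotidase that dephosphorylates pyrimidine nucleoside monophosphates, and its probe set had the widest gap of all named members (smallest later pair difference 3.37). At early gastrula nt5c3a.L measured 6.76, 6.36 and 6.94 in Gam1 embryos and 6.06, 6.30 and 5.65 in water embryos. At late gastrula the values were 11.32, 9.83 and 8.98 in Gam1 embryos, against 4.58, 5.15 and 4.75 in water embryos. By early neurula they were 11.65, 9.78 and 8.99 in Gam1 embryos, against 7.37, 6.41 and 5.08 in water embryos. The groups did not overlap at any stage, and the lowest Gam1 array of the later stages came from replicate 3 both times. The mean difference was 5.22 at late gastrula (37.2-fold) and 3.85 at early neurula (14.5-fold). At early gastrula it was 0.68 ± 0.28 (SE, limma, unadjusted p = 0.0546, adjusted p = 1), which did not pass the test.

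A list of nucleotide turnover genes had 14 measured genes. Of these, 9 were higher on the mean in late gastrulae and 10 in early neurulae, the member nt5c3a.L among them by the rule. Of all 9149 named genes, 4961 and 4673 were higher. The list medians were 0.08 and 0.09, against 0.02 and 0.00 over all named genes. No gene of the list passed the adjusted limma test, nor did any other probe set at these stages (0.0% of 23630). Over all probe sets, 1038 and 1574 had an unadjusted p under 0.05 in either direction. In the blocked fit of all 18 arrays 2 genes of the list passed as higher at each later stage, the member nt5c3a.L and tk2.S. ada.S passed as lower at early neurula. nt5c3a.L was chosen on these arrays, so its pass is no separate result. Of all probe sets, 1.65% and 4.53% passed as higher at the later stages, and 3.47% as lower at early neurula. tk2.S, a mitochondrial thymidine kinase, differed by 0.58 ± 0.14 and 0.96 ± 0.21 (SE, adjusted p = 0.739 and 0.411) at the later stages, and ada.S, adenosine deaminase, by -0.51 ± 0.16 and -0.57 ± 0.17 (SE, adjusted p = 1 and 0.606).

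tsen54 encodes a subunit of the endonuclease that removes introns from precursor tRNAs. Of the probe sets annotated to tsen54.L, 5 are members. In Xl2.51899.1.S1_at the early gastrula values were 9.95, 9.63 and 10.32 in Gam1 embryos and 9.19, 9.58 and 9.97 in water embryos. At late gastrula Gam1 embryos measured 9.74, 9.67 and 9.82, against 5.90, 7.45 and 8.35 in water embryos. Early neurula gave 10.32, 9.60 and 9.63 in Gam1 embryos, against 4.79, 5.61 and 6.84 in water embryos. The Gam1 arrays of all stages stayed between 9.60 and 10.32, and the water arrays declined with replicate 3 highest at each later stage.

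Xl2.55527.1.A1_at had the highest mean in water embryos of the named members at early gastrula. Its early gastrula values were 14.31, 13.83 and 14.19 in Gam1 embryos and 13.48, 13.58 and 13.78 in water embryos, with no overlap. It was the only member past an unadjusted threshold of 0.05 there in the unpaired fit, where 0.343% of all probe sets were past it and higher. Its difference was 0.50 ± 0.16 (SE, limma, unadjusted p = 0.0244, adjusted p = 1). With the replicate number as a block in limma, 24 members were past that threshold and higher, where 4.52% of all probe sets were. For Xl2.55527.1.A1_at this gave an unadjusted p of 0.0246 (adjusted p = 0.502). Later values were 13.87, 13.86 and 14.03 in Gam1 embryos, against 10.79, 11.58 and 12.62 in water embryos at late gastrula, and 14.26, 13.53 and 13.86 against 11.05, 10.80 and 11.92 at early neurula. The other 3 member probe sets, Xl2.55580.1.S1_at, Xl2.55580.1.S1_s_at and Xl2.54871.1.S1_s_at, differed by 0.65, 0.74 and 0.74 at early gastrula and were higher in all 3 pairs, but their arrays overlapped between groups, with replicate 2 lowest in both. With the replicate block in limma their unadjusted p was 0.000872, 0.0163 and 0.0148 (adjusted p = 0.379, 0.489 and 0.480), lower than that of Xl2.55527.1.A1_at. Xl2.55580.1.S1_at measured 8.65, 7.67 and 9.55 in Gam1 embryos and 7.91, 7.14 and 8.86 in water embryos at that stage, and its later differences were 2.79 and 3.15. Xl2.55580.1.S1_s_at measured 9.20, 7.64 and 10.15 in Gam1 embryos and 8.03, 7.23 and 9.50 in water embryos, and Xl2.54871.1.S1_s_at 9.49, 8.08 and 10.40 against 8.40, 7.74 and 9.62. A further 3 probe sets of tsen54.L did not meet the rule. Xl2.517.2.S1_a_at and Xl2.517.2.S1_x_at differed by 0.93 ± 0.21 and 0.93 ± 0.22 at late gastrula and by 1.23 ± 0.18 and 1.102 ± 0.19 at early neurula (SE, limma, adjusted p = 0.227 or higher). In the blocked fit of all 18 arrays both passed at both stages, the earlier with adjusted p = 0.0111 and 0.0101 and the later with adjusted p = 0.00238 and 0.00314. Of all probe sets, 1.65% and 4.53% passed as higher at these stages. The gene was chosen on these arrays, so these passes are no separate result. Xl2.22688.1.S1_at differed by 0.58 ± 0.62 and 0.63 ± 0.75, with replicate 1 lower in Gam1 embryos, at 6.63 against 7.17 at late gastrula and 6.72 against 7.27 at early neurula. The probe sets of this gene thus did not all show the same size of difference, and which transcripts each one reads was not tested.

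lig4 encodes DNA ligase IV, which joins DNA ends in non-homologous end joining. lig4.L measured 7.55, 9.48 and 6.82 in Gam1 embryos at early gastrula, and 7.34, 9.23 and 6.62 in water embryos. The replicates lay far apart while each pair differed by little, and the mean difference was 0.22 ± 0.98 without pairing (SE, limma, unadjusted p = 0.831) and 0.22 ± 0.05 with the replicate number as a block (unadjusted p = 0.0147, adjusted p = 0.480). At late gastrula Gam1 embryos had 8.86, 8.18 and 7.43, against 5.89, 6.29 and 4.85 in water embryos, and at early neurula 9.10, 8.76 and 8.43, against 7.34, 6.95 and 6.88. lig4.L was the only named member whose early neurula mean lay within 1 of its early gastrula mean in both groups. In water embryos its mean went from 7.73 to 5.68 at late gastrula and was 7.06 at early neurula.

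tent5a encodes a non-canonical poly(A) polymerase. tent5a.L (Xl2.13086.1.A1_at) had 8.96, 7.25 and 8.49 in Gam1 embryos and 8.28, 7.37 and 6.91 in water embryos at early gastrula, where replicate 2 did not share the direction of the other replicates. It differed by 1.61 at late gastrula and 1.92 at early neurula. A second probe set, Xl2.13086.2.S1_at, which did not meet the rule, differed by 0.64 ± 0.26, 1.69 ± 0.38 and 2.13 ± 0.74 at the 3 stages (SE, limma, adjusted p = 1, 0.696 and 0.676). The blocked fit of all 18 arrays passed it at early neurula (adjusted p = 0.0384) and not before (adjusted p = 1 and 0.0949). Of all probe sets, 4.53% passed as higher at early neurula. The gene was chosen on these arrays, so this pass is no separate result.

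znf33a.L, annotated as a zinc finger gene, had the largest decline in water embryos among the named members. It measured 11.45, 10.91 and 12.00 in Gam1 embryos and 11.03, 10.77 and 11.58 in water embryos at early gastrula. At late gastrula the values were 9.24, 9.19 and 9.77 in Gam1 embryos, against 4.35, 6.42 and 7.43 in water embryos. At early neurula they were 8.55, 8.43 and 8.77 in Gam1 embryos, against 3.44, 3.43 and 5.11 in water embryos. The level declined with stage in both groups, the later groups did not overlap, and the mean difference was 3.33 (10.1-fold) and 4.59 (24.1-fold). At early gastrula it was 0.33 ± 0.35 (SE, limma, unadjusted p = 0.393), or 0.33 ± 0.07 with the replicate block (unadjusted p = 0.0152, adjusted p = 0.483).

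**Figure D2:**
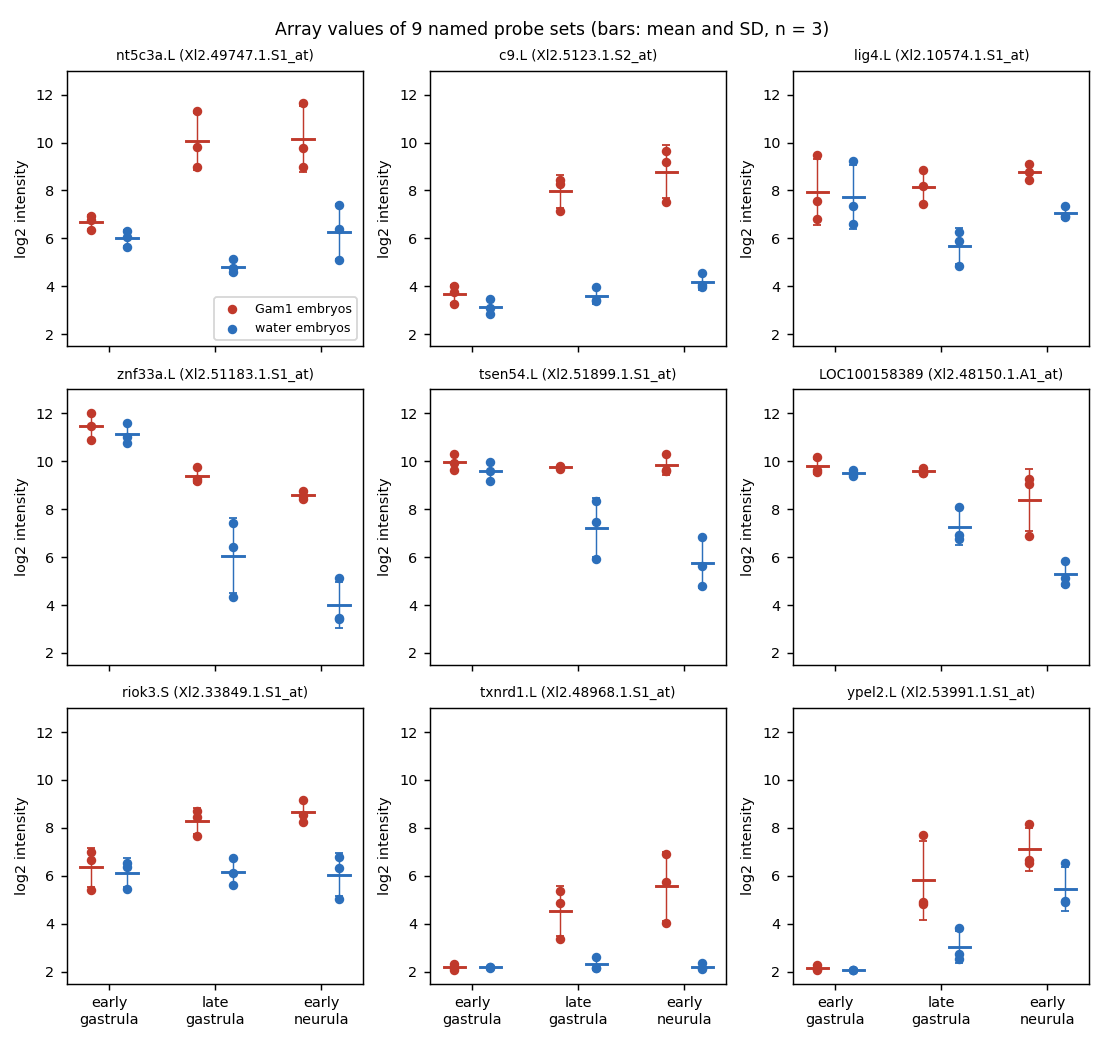
Log2 intensity (vertical axis) of 9 named probe sets at 3 stages (horizontal axis), each point 1 array, with Gam1 embryos left of water embryos and bars for the mean and SD of 3 arrays. nt5c3a.L and c9.L are separated by at least 2.95 in every later pair, znf33a.L and tsen54.L decline in water embryos, and txnrd1.L stays between 2.13 and 2.61 in water embryos at all stages.

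Members of host defence and cell surface include c9.L, havcr1.L and xv2r1.L. c9 encodes the complement component that polymerizes into the pore of the membrane attack complex. In Xl2.5123.1.S2_at, c9.L measured 3.74, 3.28 and 4.02 in Gam1 embryos and 3.49, 3.09 and 2.84 in water embryos at early gastrula. At late gastrula it had 8.45, 8.27 and 7.15 in Gam1 embryos, against 3.96, 3.40 and 3.43 in water embryos, and at early neurula 9.65, 9.17 and 7.53, against 3.96, 4.05 and 4.58. The later groups were 4.36 (20.6-fold) and 4.59 (24.0-fold) apart on the mean, with replicate 3 lowest among the Gam1 arrays. The early gastrula difference was 0.54 ± 0.26 (SE, limma, unadjusted p = 0.0855, adjusted p = 1), and the groups overlapped there.

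A second c9.L probe set, Xl2.5123.1.S1_at, gave 10.49, 9.78 and 7.90 in Gam1 embryos, against 5.46, 4.97 and 3.96 in water embryos at late gastrula, and 11.41, 10.51 and 8.48 against 7.34, 6.74 and 5.59 at early neurula. At early gastrula it measured 5.75, 5.55 and 4.39 in Gam1 embryos and 4.89, 5.73 and 2.27 in water embryos, so that pair 2 went the other way. Its mean difference there was 0.93 ± 0.99 (SE, limma, unadjusted p = 0.387), the largest of the named members. With the replicate block the SE was 0.50 (limma, unadjusted p = 0.147, adjusted p = 0.634). The complement and coagulation list had 8 measured genes, of which c9.L alone is a member. On the mean, 4 of the 8 were higher in late gastrulae and 5 in early neurulae, c9.L among them by the rule. Of all 9149 named genes, 4961 and 4673 were higher. No gene of the list passed the adjusted test without pairing. The blocked fit of all 18 arrays passed 1 as higher and 2 as lower in late gastrulae, and 1 each way in early neurulae. The higher one was the member c9.L at both stages. c9.L was chosen on these arrays, so its pass is no separate result. Of all probe sets, 1.65% and 4.53% passed as higher at these stages, and 2.2% and 3.47% as lower. cfb.L, complement factor B, differed by 1.36 ± 0.41 at early neurula (SE, limma, adjusted p = 0.605), and cfi.S, complement factor I, by -0.70 ± 0.25 at late gastrula (adjusted p = 1, or 0.0292 in the blocked fit).

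havcr1 encodes a cell surface receptor that binds phosphatidylserine on dying cells in mammals. havcr1.L measured 2.26, 5.80 and 2.28 in Gam1 embryos at early gastrula and 2.30, 5.77 and 2.25 in water embryos, so replicate 2 was high in both groups and the others were close to the lowest value of the table. At late gastrula it had 4.43, 6.03 and 6.38 in Gam1 embryos and 2.22, 4.80 and 4.01 in water embryos, which overlap, and at early neurula 5.64, 6.52 and 7.28 against 2.23, 4.39 and 3.27, which do not. xv2r1.L, of the vomeronasal type of receptor, measured 3.19, 3.10 and 3.96 in Gam1 embryos and 3.09, 2.51 and 3.14 in water embryos at early gastrula. Its difference was 0.50 ± 0.30 there (SE, limma, unadjusted p = 0.15) and 2.28 and 2.95 later. With the replicate block the unadjusted p at early gastrula was 0.0421 (limma, adjusted p = 0.543). The late gastrula arrays were at 6.97, 5.83 and 5.56 in Gam1 embryos, against 3.48, 3.55 and 4.48 in water embryos, and the early neurula arrays at 6.86, 6.93 and 6.72, against 3.32, 4.00 and 4.33, without overlap. In water embryos both genes stayed within 1 from early gastrula to early neurula.

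Metabolic enzymes were cyp3a4.1.L, cyp3a4.2.L, txnrd1.L and ndufa8.L. The cytochrome P450 monooxygenases of the CYP3A family oxidize steroids and foreign compounds. cyp3a4.1.L measured 5.25, 4.33 and 2.68 in Gam1 embryos and 5.63, 4.14 and 2.46 in water embryos at early gastrula. Replicates lay far apart in both groups, and the groups overlapped at late gastrula (5.50, 4.55 and 3.52 in Gam1 embryos, 4.20, 3.14 and 2.43 in water embryos) and at early neurula (6.14, 4.79 and 3.39 in Gam1 embryos, 3.63, 2.87 and 2.07 in water embryos). cyp3a4.2.L, at 1.03 one of the members nearest to the threshold, differed by 0.42, 1.62 and 2.40 at the 3 stages. The SE of its early gastrula difference was 1.18 in limma without pairing (unadjusted p = 0.737). With the replicate block in limma it was 0.31 (unadjusted p = 0.257, adjusted p = 0.711). The 2 symbols come from probe sets with the same cluster number. A further cyp3a4.1.L probe set lay between 2.08 and 2.55 on all arrays.

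txnrd1 encodes thioredoxin reductase, which keeps thioredoxin reduced. txnrd1.L lay at 2.31, 2.09 and 2.17 in Gam1 embryos and 2.15, 2.18 and 2.21 in water embryos at early gastrula, all close to the lowest value of the table. At late gastrula Gam1 embryos had 5.39, 3.38 and 4.88, against 2.16, 2.17 and 2.61 in water embryos, and at early neurula 6.91, 4.05 and 5.74, against 2.16, 2.13 and 2.35. The water arrays stayed near that lowest value at each stage, so the differences of 2.24 and 3.35 depend on where the scale ends. Of 32 measured genes of the heat shock and oxidative stress list, 24 were higher on the mean in late gastrulae and 23 in early neurulae, the member txnrd1.L among them by the rule. The list medians were 0.08 and 0.12. Of all 9149 named genes, 4961 and 4673 were higher, with medians of 0.02 and 0.00. No gene of the list passed the adjusted limma test without pairing. In the blocked fit of all 18 arrays 1 and 4 passed as higher, against 1.65% and 4.53% of all probe sets. The 4 include the member txnrd1.L, which was chosen on these arrays, so its pass is no separate result. gpx4.S, a glutathione peroxidase that acts on lipid peroxides, differed by 0.36 ± 0.09 at early neurula (SE, adjusted p = 0.524, or 0.0112 in that fit). ndufa8, an accessory subunit of mitochondrial complex I, climbed in both groups. ndufa8.L differed by 0.36, 1.61 and 1.32 in stage order.

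Signalling and regulatory genes among the members were pik3r3.S, riok3.S, dipk1a.L and ypel2.L. pik3r3 encodes a regulatory subunit of phosphoinositide 3-kinase. pik3r3.S differed by 0.13 at early gastrula, where its arrays overlapped, and by 1.94 and 1.77 later. The other copy of the gene, pik3r3.L, is no member and had 8.58, 7.81 and 7.82 in Gam1 embryos, against 6.19, 6.77 and 6.64 in water embryos at late gastrula, and 9.23, 8.32 and 8.21 against 6.98, 7.34 and 7.48 at early neurula. Its groups did not overlap at either stage, and it differed by 1.53 ± 0.31 and 1.32 ± 0.33 (SE, limma, adjusted p = 0.61 and 0.487 over all probe sets). The blocked fit of all 18 arrays gave adjusted p = 0.0432 and 0.0468 for pik3r3.L, where 1.65% and 4.53% of all probe sets passed in this direction. pik3r3.L was looked at because its other copy was chosen on these arrays, so these passes are no separate result.

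riok3 encodes an atypical protein kinase of the RIO family. riok3.S (Xl2.33849.1.S1_at) measured 6.66, 5.43 and 6.98 in Gam1 embryos and 6.55, 5.45 and 6.39 in water embryos at early gastrula. Gam1 embryos had 8.69, 7.66 and 8.47 at late gastrula, against 6.14, 5.63 and 6.76 in water embryos, and 9.15, 8.26 and 8.53 at early neurula, against 6.77, 5.05 and 6.32. Other probe sets of riok3.S did not meet the rule. Xl2.33849.1.S2_at differed by 1.61 ± 0.48 and 1.91 ± 0.63 at the later stages (SE, limma), and Xl2.52143.1.S1_s_at by 1.47 ± 0.42 and 2.01 ± 0.72. Xl2.52143.1.S1_at differed by 1.01 ± 0.43 and 0.99 ± 0.56, with water arrays close to the lowest value of the table. In its early neurula replicate 3, Gam1 embryos had 2.12 and water embryos 2.14. Both probe sets of riok3.L fell short of the rule. Xl2.24190.1.S2_at differed by 0.95 ± 0.16 and 1.12 ± 0.18 (SE, limma, adjusted p = 0.514 and 0.241), and Xl2.24190.1.S1_at by 0.98 ± 0.26 and 1.101 ± 0.30 (adjusted p = 0.84 and 0.545). The blocked limma fit of all 18 arrays gave adjusted p = 0.00765 and 0.00249 for the first and 0.0152 and 0.00636 for the second. Of all probe sets, 1.65% and 4.53% passed as higher in that fit at these stages. riok3.L was looked at because its other copy was chosen on these arrays, so these passes are no separate result. Counting all 11 further probe sets of the member genes and of their other copies, 10 were at least 0.5 higher on the mean at both later stages and 8 were higher in all 3 pairs at both. At each stage taken alone, 4.45% and 5.73% of all probe sets had a mean difference of at least 0.5. Higher in all 3 pairs were 22.4% and 22.6%. The share of all probe sets that met a condition at both stages was not computed. Most of the 11 read the same genes as the members, so they are not independent of the rule.

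dipk1a.L, of a family of protein kinase-like proteins of the endoplasmic reticulum, measured 10.01, 10.15 and 9.89 in Gam1 embryos and 10.17, 10.10 and 9.96 in water embryos at early gastrula. The difference there was -0.06 ± 0.11 (SE, limma, unadjusted p = 0.605). At the later stages the means were 1.46 and 1.99 apart, with 9.55, 9.05 and 9.14 in Gam1 embryos and 7.42, 7.90 and 8.04 in water embryos at late gastrula, and 9.97, 9.18 and 8.65 against 7.44, 7.43 and 6.97 at early neurula. ypel2.L, a member of the yippee-like family, lay at 2.12, 2.29 and 2.07 in Gam1 embryos and 2.07, 2.07 and 2.09 in water embryos at early gastrula. It then climbed in both groups, to 7.70, 4.82 and 4.90 in Gam1 embryos and 3.81, 2.53 and 2.75 in water embryos at late gastrula, and to 8.15, 6.67 and 6.53 against 6.52, 4.91 and 4.96 at early neurula. At early neurula the highest water array, replicate 1, lay just below the lowest Gam1 array, replicate 3.

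LOC100158389 and XB5815362.S are named by the annotation without a role. LOC100158389 has 3 member probe sets. In Xl2.48150.1.A1_at it measured 9.64, 9.55 and 10.16 in Gam1 embryos and 9.38, 9.46 and 9.64 in water embryos at early gastrula, 9.53, 9.49 and 9.72 against 6.75, 6.94 and 8.11 at late gastrula, and 9.25, 9.03 and 6.89 against 5.83, 5.13 and 4.87 at early neurula. Xl2.34769.1.S1_at, with the next highest water mean at early gastrula after Xl2.55527.1.A1_at, measured 13.52, 12.13 and 13.96 in Gam1 embryos and 13.66, 12.37 and 13.92 in water embryos at that stage. Xl2.16774.1.S1_at had 11.56, 9.92 and 11.59 in Gam1 embryos and 11.69, 10.40 and 11.70 in water embryos, lower in all 3 pairs. The early gastrula differences of the 3 were 0.29 ± 0.19, -0.11 ± 0.64 and -0.24 ± 0.61 (SE, limma, unadjusted p = 0.189, 0.873 and 0.711). With the replicate block in limma the unadjusted p was 0.0502, 0.181 and 0.0651. The signs were unlike, but no difference passed the test, and which transcripts each probe set reads was not tested. XB5815362.S climbed in both groups, and its 2 probe sets differed by 0.30 and 0.26 at early gastrula, by 2.26 and 2.03 in late gastrulae and by 2.17 and 1.43 in early neurulae.

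Among the unnamed members, Xl2.19235.1.A1_at and Xl2.32009.1.S1_at had the largest smallest-pair differences (5.16 and 4.46). Xl2.19235.1.A1_at measured 10.56, 8.43 and 10.01 in Gam1 embryos and 9.16, 7.48 and 6.14 in water embryos at early gastrula, 12.20, 11.62 and 11.14 against 5.53, 6.46 and 5.88 at late gastrula, and 12.48, 11.64 and 10.86 against 6.01, 5.18 and 5.05 at early neurula. Its early gastrula difference was 2.07 ± 0.95 (SE, limma, unadjusted p = 0.0784, adjusted p = 1), higher in 3 of 3 pairs. With the replicate block its unadjusted p there was 0.0444 (limma, adjusted p = 0.543). Xl2.32009.1.S1_at measured 9.34, 6.15 and 9.32 in Gam1 embryos and 8.55, 5.02 and 5.86 in water embryos at early gastrula, 11.77, 10.97 and 11.25 against 5.35, 4.38 and 6.79 at late gastrula, and 11.79, 10.83 and 10.57 against 5.66, 2.76 and 2.51 at early neurula. At 7.42 its early neurula difference was the largest of the 96. Both declined in water embryos and climbed in Gam1 embryos.

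Xl2.48131.1.A1_at and Xl2.3499.1.A1_at were picked for their early gastrula values after these were seen. Xl2.48131.1.A1_at had 7.75, 6.47 and 9.02 in Gam1 embryos and 5.59, 5.10 and 7.16 in water embryos at that stage. Each pair differed by at least 1 while the groups overlapped, and the difference was 1.80 ± 0.86 (SE, limma, unadjusted p = 0.087, adjusted p = 1). In the blocked fit of all 18 arrays it was the single member past the adjusted threshold at early gastrula (limma, adjusted p = 0.0395). Of all probe sets, 0.0296% passed in this direction. That fit takes its spread from all 18 arrays, those of the rule included, so this pass is not independent of the choice. In the blocked fit of the 6 early gastrula arrays 0 members passed. Xl2.3499.1.A1_at had 7.35, 4.86 and 7.57 in Gam1 embryos and 6.08, 3.59 and 3.87 in water embryos, a difference of 2.08 and the largest of the 96 at that stage.

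The rule left the early gastrula arrays aside, and over them the members differed by a median of 0.29 (quartiles 0.04 and 0.52, range -0.30 to 2.08), against 0.00 over all probe sets (quartiles -0.07 and 0.07). Pair medians were 0.21, 0.08 and 0.37. On the mean, 80 of 96 were higher in Gam1 embryos, and 41 (42.7%) were higher in all 3 pairs, where 15.5% of all probe sets were. A further 37 were higher in 2 pairs, 13 in 1 pair and 5 in none. A mean difference of at least 0.5 was reached by 27 members (1.07% of all probe sets) and of at least 1 by 8 (0.14%), and 2 members differed by at least 1 in every pair (0.0169% of all). The 8 are all unnamed. Of the 26 named probe sets, 12 were higher in all 3 pairs, with differences from -0.24 to 0.93 over the 26. At the same stage endodermal marker genes were lower on the mean in 23 of 24 cases (median -0.34), mesodermal in 24 of 29 (-0.16), neural plate in 19 of 25 (-0.08) and epidermal in 17 of 27 (-0.06), against a median of 0.00 over all named genes, and the medians of the other marker lists lay between -0.01 and 0.00. None of these genes passed the adjusted limma test without pairing, and 1 mesodermal gene passed as lower in the blocked fit of all 18 arrays, as 0.131% of all probe sets did. The part of these shifts in the members' differences was not tested.

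**Figure D3:**
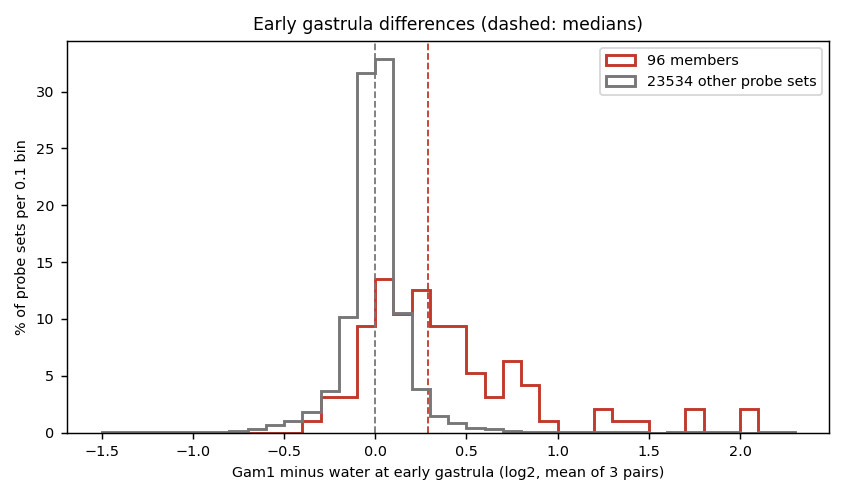
Share of probe sets in percent (vertical axis) by Gam1 minus water log2 difference at early gastrula (horizontal axis, mean of 3 pairs, bins of 0.1), for the 96 members and the other 23534 probe sets, with dashed lines at the medians. The members are spread to the right of the other probe sets, with a median of 0.29 and values up to 2.08.

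In the unpaired limma fit of the 6 arrays no probe set had an adjusted p under 0.05 (0.0% of 23630) and 148 had an unadjusted one in either direction. There 1 member had an unadjusted p under 0.05, against 0.343% of all probe sets in this direction. With the replicate number as a block, 24 members (25%) had an unadjusted p under 0.05 and were higher, against 4.52% of all probe sets, and 0 passed after adjustment (smallest adjusted p over all probe sets 0.379). The members varied more between replicates at this stage than other probe sets did, with a median SD of 0.684 in Gam1 embryos and 0.557 in water embryos, against 0.294 and 0.290 over all. The 3 members whose groups did not overlap at early gastrula (0.994% of all probe sets) were nt5c3a.L, Xl2.55527.1.A1_at of tsen54.L and the unnamed Xl2.57022.1.S1_at. Probe sets of 1 gene share their source, and same-numbered arrays may share one too, so the counts over members are a description.

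The plot of early against late gastrula differences sets the stage outside the rule beside a stage that chose the members, so no relation is read from it.

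**Figure D4:**
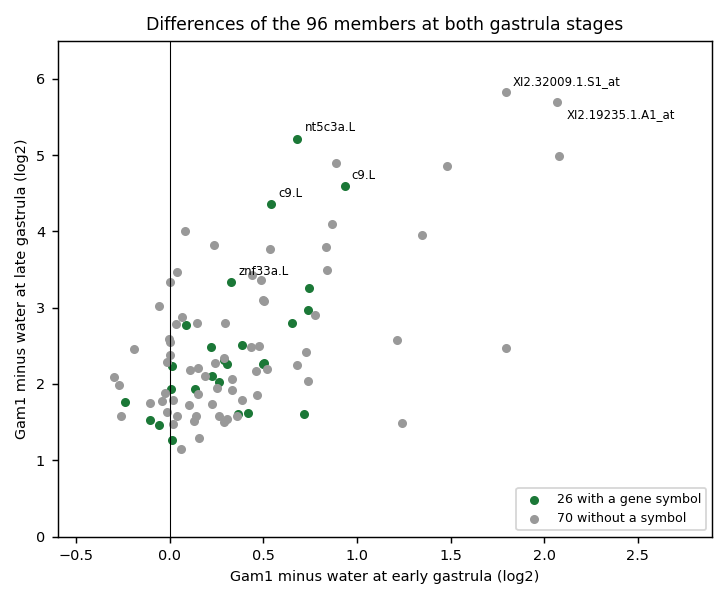
Gam1 minus water log2 difference at late gastrula (vertical axis) against that at early gastrula (horizontal axis) for the 26 members with a gene symbol and the 70 without, each point the mean of 3 pairs. Early gastrula values run from -0.30 to 2.08 and late gastrula values from 1.14 to 5.82, and the points with the largest early values are unnamed.

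Levels in water embryos covered nearly the whole scale. In early gastrulae the median over members was 7.70 with Gam1 and 7.20 with water. Late gastrulae had medians of 8.88 with Gam1 and 5.99 with water, and early neurulae of 8.67 and 5.39. By array, the early gastrula medians were 7.76, 6.996 and 7.55 in Gam1 embryos and 7.49, 6.90 and 6.93 in water embryos, which interleave. Late gastrula gave 9.21, 8.74 and 8.78 in Gam1 embryos, against 5.49, 6.02 and 6.61 in water embryos, and early neurula 9.18, 8.63 and 8.42, against 5.72, 5.15 and 5.16. The water mean was at least 8 for 39, 22 and 20 members in stage order, and below 3 for 10, 5 and 9. No member had a Gam1 mean below 3 at the later stages, and 7 had one at early gastrula.

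Near the threshold the smallest later pair difference was 1.02 for Xl2.46790.1.S1_x_at, 1.03 for cyp3a4.2.L and 1.04 for Xl2.10885.1.S1_at, just inside. Just outside lay the unnamed Xl2.17661.1.A1_at at 1.00 (below 1 before rounding), cd74.L (Xl2.25179.1.S1_at), the invariant chain of MHC class II, at 0.99, and Xl2.26035.1.S1_at at 0.97.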

How the data were processed

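RNA of pooled embryos was hybridized to Affymetrix Xenopus laevis 2.0 arrays. Per the methods, the authors took log2 intensities from the scanner files in Bioconductor and quantile normalized them, and their deposited log2 table has 23701 probe sets. Their background correction and probe summary are not given in the sources used here. The 71 Affymetrix controls were left out. Symbols came from the platform annotation (12258 probe sets with 1, 228 with several, 11144 with none), and no sequence was used. The members, the gene lists and the tests were chosen with earlier results of these data known. Lists of gene function were described where they hold a member. Of those not described, endoplasmic reticulum and amino acid stress genes were higher in 25 and 21 of 30 cases at the later stages. Immediate early and AP-1 genes were higher in 10 and 13 of 27, and all named genes in 4961 and 4673 of 9149. Named members are those with 1 symbol, and per-array values were given for those with the largest early gastrula differences among members higher in every pair, the largest smallest later pair differences, the lowest early gastrula differences and the highest early gastrula water levels, and for 2 unnamed probe sets. Some other probe sets were also given per array, among them tent5a.L, txnrd1.L and cyp3a4.1.L. At the threshold only the smallest later pair differences were given.

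Gam1 and water arrays of a stage were compared in R 4.3.3 by limma 3.58.1 (trended moderated test, unpaired), with Benjamini-Hochberg adjustment over 23630 probe sets at 0.05, and summaries were made in Python 3.11.15. The methods name Student's test and do not say whether it was paired, and the labels name no clutch. Deviations of same-numbered Gam1 and water arrays correlated at 0.686 to 0.941 and those of different numbers at -0.620 to -0.233. Deviations cancel within a group, so the negative values come with the positive ones and are no separate sign of pairing. On the same-numbered correlations the numbers were taken to pair the arrays, and the replicate block was an alternative. In simulated tables with 200 altered probe sets, the unpaired fit at early gastrula made 0 false calls among 23630 and recovered 50.0% of changes of 2 log2 units, the blocked fit of its 6 arrays made 5 and recovered 81.0%, and the blocked fit of all 18 arrays made 72 and recovered 94.0%. At late gastrula and early neurula the fit of all 18 arrays made 110 and 168 false calls and recovered 97.0% at both. There 8.63% and 8.65% of unaltered probe sets had an unadjusted p under 0.05 in that fit. Its adjusted threshold of 0.05 thus let through a larger share of false calls in the simulation than it stands for. At early gastrula 0.534% of unaltered probe sets had an unadjusted p under 0.05 in the unpaired fit. The blocked fit of 6 arrays gave 6.3% and the fit of all 18 arrays 4.601%. In the simulation the unpaired test was thus stricter than its threshold stands for. The number of arrays limits the precision. Alternatives were the block, all arrays in 1 fit, no trend, Student's test, a filter at a mean of 4, other normalizations, other thresholds and leaving out arrays or pairs.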

Additional observations from a re-analysis of the deposited data

Results flagged for a closer look

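For 5 members every early gastrula pair went against the later stages, with lower values in Gam1 embryos in all 3 pairs and higher values in all 6 later pairs. They were picked because of this opposite direction, and the difference between the stages was not tested. The later direction is fixed by the rule, and 15.6% of all probe sets were lower in all 3 early gastrula pairs. LOC100158389 (Xl2.16774.1.S1_at) differed by -0.24 at early gastrula. The unnamed Xl2.32625.1.A1_at and Xl2.32625.1.A1_a_at, which share a cluster number, differed by -0.19 and -0.27, and Xl2.32625.1.A1_at measured 7.59, 8.53 and 8.93 in Gam1 embryos and 7.97, 8.65 and 9.00 in water embryos there. Xl2.19939.1.A1_at differed by -0.30 and Xl2.32751.1.A1_at by -0.11, both from levels between 2.47 and 3.08.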

How the results depend on the processing

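With a threshold of 1.5 the rule gave 42 members in place of 96, and with every Gam1 array at least 1 above every water array (no replicate block) 46. Without each replicate pair in turn it gave 105 to 165, the most without replicate 3. Leaving out a pair removes a condition of the rule, so all of these sets hold the 96 by construction. A threshold of 0.8, a filter on the Gam1 mean and other normalizations stayed within 1.5 times. At early gastrula, pairing moved the counts. With the replicate block 2141 probe sets in place of 148 had an unadjusted p under 0.05 in either direction, and 1429 with the block over all 18 arrays. Members under 0.05 and higher were 24 with the block and 10 over all 18 arrays, in place of 1. Of all probe sets, 4.52%, 2.26% and 0.343% were under 0.05 and higher in these fits. The fit of all 18 arrays draws its spread in part on the arrays of the rule. It put 38 probe sets in place of 0 past the adjusted threshold. Student's test passed 1 probe set after adjustment. With a mean of at least 4, 35 probe sets had an unadjusted p under 0.05 in either direction. There 2 of 80 members were under 0.05 and higher, against 0.115% of the probe sets kept. With no trend 2 members were, against 0.334% of all probe sets. Leaving out arrays or pairs gave 141 to 270 probe sets in either direction, the most without replicate 2. It gave 0 to 11 members that were higher, the most without Gam1 replicate 2. In these fits 0.309% to 0.66% of all probe sets were under 0.05 and higher, and 0.546% without Gam1 replicate 2. The median early gastrula difference of the members kept its sign (0.17 to 0.33 without 1 pair). The 41 members higher in all 3 pairs became 47 to 64 with 2 pairs left, the most without replicate 2, where 27.1% of all probe sets were higher. This count cannot fall when a pair is left out. With 1 probe set per symbol or cluster number, an alternative chosen after seeing the data, the median was 0.28 and 29 of 80 were higher in all pairs. At late gastrula the unadjusted count of 1038 was 3381 with the replicate block and 5664 over all 18 arrays, where 909 in place of 0 passed adjustment. A mean of at least 4 let 15 pass, and leaving out arrays gave 0 to 2 adjusted and 573 to 1525 unadjusted. At early neurula 1574 became 4228 and 6372, with 1890 in place of 0 adjusted in the fit of all 18 arrays and 32 with a mean of at least 4, and leaving out arrays gave 0 to 7 and 944 to 1923. The causes were not tested. For each named member the early gastrula value was recomputed with the replicate block, median centring and each pair left out. No probe set at all passed the adjusted threshold in these settings. The 130 recomputed values thus could not show a named member crossing it. Signal close to 2.07 limits the differences of dim probe sets.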
